A study of Mus musculus with 9 samples.

Results

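Splenic B cells of Eµ-PRMT5/TCL1 mice aged 6 months were compared with those of mice of the same genotype aged 3 months. The sample description put 5 of the 9 libraries of the series into this comparison, 3 mice at 3 months and 2 at 6 months, with 1 library per mouse. All 5 mice were labelled as strain C57BL/6N, where the methods of the study name C57BL/6J as the background of the cross, and carried the transgenes Eµ-hPRMT5 and Eµ-hTCL1, which express human PRMT5 and human TCL1 in B cells under a V region promoter and the enhancer of the immunoglobulin heavy chain locus. The other 4 libraries came from Eµ-TCL1 mice, 2 at 3 months and 2 at 6 months, which carry human TCL1 alone. They entered the fit to estimate the spread between mice and to test if the effect of age was unlike in both genotypes. No wild-type mice were part of the series, so TCL1 was present in every library. The comparison asks how gene expression of B cells changes while leukemia develops in the double transgenic line. B cells were enriched by a kit that depletes other cells, and no gate on leukemic cells was applied, so a library is a mixture of all B cells of the spleen with the cells that escaped depletion.

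Chronic lymphocytic leukemia (CLL) is a slow expansion of mature B cells that depend on signals from the B-cell receptor. TCL1 binds the kinase AKT and raises its activity, and mice that overexpress it in B cells develop with age an expansion of CD5+ cells that resemble B1a cells, a self-renewing B cell subset that makes natural IgM. PRMT5 is the main enzyme that places symmetric dimethyl marks on arginine, on histones and on Sm proteins of the spliceosome, and it works in a complex with WDR77 (MEP50).

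Counts per gene are given here as CPM, in which each library is brought to the same total after TMM scaling (a scaling that sets the bulk of genes to no change), and values of a group follow the order of its replicate numbers. Total counts were between 12233230 and 13559453 at 3 months and were 16487984 and 14783012 at 6 months. Of 54838 annotated genes, 18795 had enough counts to be tested. Mouse Tcl1 had a count of 0 in all libraries, and no gene of the files stands for the human transgenes. The labels give no sex. Replicate 1 at 3 months had 7863 counts of Y-linked genes and 11 of Xist, and the other 4 libraries had at most 3 Y-linked counts and at least 24417 of Xist. The defining B cell genes were abundant in all 5 libraries, with Ms4a1 (CD20) between 991 and 2254 CPM and Cd79a between 101 and 156 CPM. These values match the label of B cells.

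RNA of other cell types moved with age and stands here before the results because it touches all of them. The 20 T cell markers summed to 2375, 1823 and 2398 CPM at 3 months and to 1201 and 945.6 CPM at 6 months, without overlap, and 17 of the 20 fell at 6 months, against 10.4% of all genes. The 10 NK cell markers summed to 675.5, 597.1 and 439.9 CPM at 3 months and to 190.9 and 185.2 CPM at 6 months, and 9 of 10 were lower, 5 without replicate 1 of either age and 4 without replicate 2 at 6 months. T-cell receptor segments fell in 105 of 171 cases (61.4%). In contrast, the 13 macrophage and monocyte markers and the 12 neutrophil markers had 0 members past the threshold, by edgeR or DESeq2, and 0 at an unadjusted p under 0.05. Their summed CPM lay between 1678 and 3008 and between 1065 and 2847 at 3 months, and the 2 libraries at 6 months stood on both sides of these ranges, with 4329 against 911 CPM for macrophage and 9050 against 1040 CPM for neutrophil markers. The granule gene S100a9 had 463, 1151 and 1272 CPM at 3 months and 3600 and 383 CPM at 6 months. In bulk libraries, fewer cells of a type and less RNA per cell cannot be told apart. The part of these cells in each gene result below was not tested, except that the number of genes past the threshold was 4014 (2290 higher, 1724 lower) when the marker genes of other cell types and all V, D and J segments were left out of the library totals and the test.

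**Figure D1:**
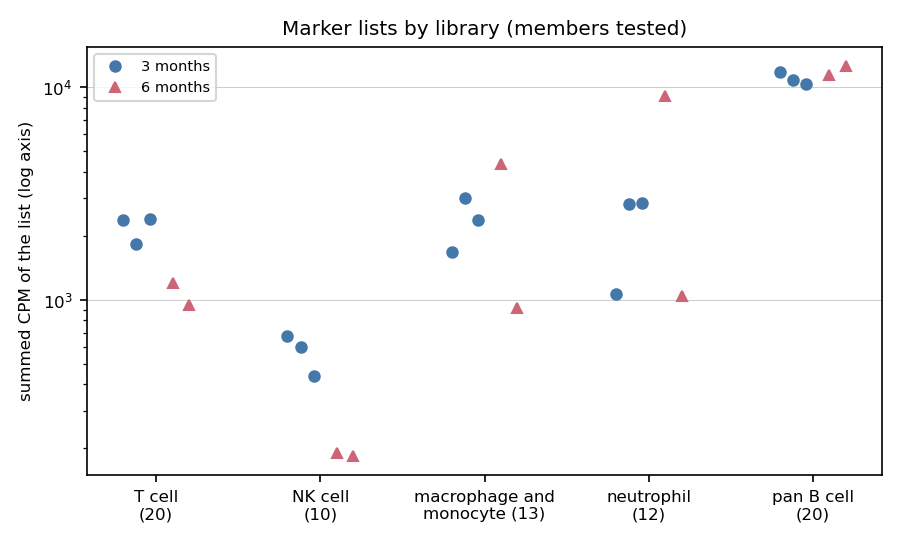
Summed CPM (log axis) of the tested members of 5 marker lists, with 1 point per library, circles for the 3 libraries at 3 months and triangles for the 2 at 6 months. T and NK cell markers were lower in both libraries at 6 months than in all 3 at 3 months, the neutrophil sum was 9050 in 1 library and 1040 in the other, and pan B cell genes lay between 10331 and 12500 in all 5.

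Between 3 and 6 months, 4227 of 18795 genes (22.5%) passed an adjusted p of 0.05 (edgeR quasi-likelihood test, Benjamini-Hochberg over all genes), of which 2270 (12.1%) were higher and 1957 (10.4%) lower at 6 months. Among these called genes the rises had a median of 1.66-fold and the falls a median of 2.221-fold. The medians cover called genes alone, and rises and falls were called at unlike abundances, as given below. They do not compare the size of rises and falls over all genes. Over 2-fold, 738 genes were higher and 1166 lower. Over 8-fold, 90 were higher and 59 lower. In all 4227 genes the CPM of the 2 groups did not overlap, which was also true of 53.3% of all genes tested. Abundant genes rose more often: of 4 equal bins of genes by mean CPM, the highest had 22.4% higher and 9.83% lower, and the lowest had 2.55% higher and 7.49% lower. The 1180 tested genes in any of the lists below were higher in 28.2% and lower in 10.1% of cases. A list with a share of rises above 12.1% can therefore still be ordinary among the listed or the abundant genes. Protein-coding genes were higher in 2081 and lower in 1072 of 12970 cases, and long noncoding RNAs higher in 77 and lower in 258 of 2178. The immunoglobulin V, D and J segments were higher in 8 and lower in 73 of 209 cases. The ratio of higher to lower depends on the scaling: with library totals alone 1236 genes were higher and 3214 lower, so that 27.8% of the calls were higher in place of 53.7%, and the median log2 fold change of all genes went from -0.02 to -0.22. Rises below about 0.2 on the log2 scale may therefore turn into falls with library totals alone. The count fell to 2044 without replicate 1 at 3 months, the library with Y-linked counts, to 1956 without replicate 3 at 3 months, and to 0 (812 at an unadjusted p under 0.05) with a T cell marker score as a covariate, which the 4 groups account for almost entirely (R2 = 0.927).

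**Figure D2:**
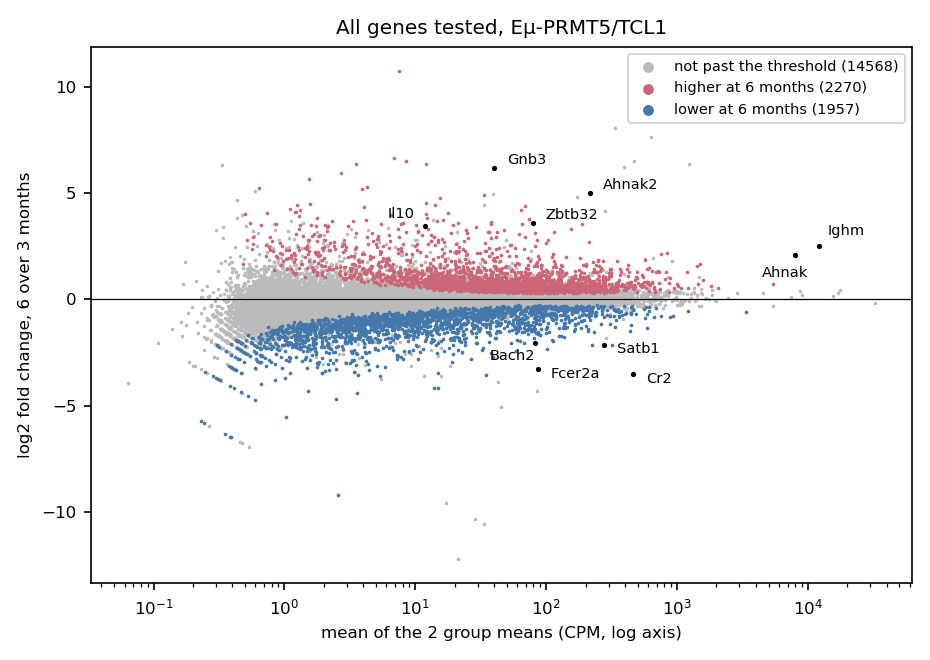
Log2 fold change at 6 over 3 months against the mean of the group means (CPM, log axis) for all 18795 genes tested, with genes past the threshold in red (2270 higher) and blue (1957 lower). Named genes are black points, and Cr2 and Fcer2a lie at the bottom and Gnb3 and Ahnak2 near the top of the abundant genes.

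Among the largest rises, Gnb3, a G protein beta subunit, had 0.459, 1.88 and 0.862 CPM at 3 months and 92.9 and 65.2 CPM at 6 months (log2 fold change 6.18 ± 0.48 (SE), adjusted p = 0.000717). Ahnak2, a giant scaffold protein, had 9.34, 18.4 and 11.4 CPM at 3 months and 502 and 342 CPM at 6 months (5.01 ± 0.73, adjusted p = 0.00728). Both 6-month libraries were high in these genes and no library overlapped. The same held for Tubb3, a tubulin of neurons (4.45 ± 0.47, adjusted p = 0.00111), Trim40 (4.54 ± 0.48, adjusted p = 0.00106), Cyp11a1, the enzyme that starts steroid synthesis (4.20 ± 0.47, adjusted p = 0.00234) and the TNF receptor family member Tnfrsf19 (4.09 ± 0.36, adjusted p = 0.000697). The 6-month mice had 37.9 and 16.6 CPM of Tubb3 and 15.4 and 30.8 CPM of Trim40. Olfml2a (6.66 ± 0.74, adjusted p = 0.00135) had 21.8 and 5.32 CPM at 6 months, 4.1-fold apart. Its 3-month values of 0.0766, 0.217 and 0.0784 CPM are a few counts at most, so the size of its rise is uncertain. Among the 12 largest falls, the 6-month mice differed most in Il9r (17.45 and 4.942 CPM) and Lrrk2 (179.2 and 53.23 CPM). Cr2, which encodes the complement receptors CD21 and CD35, had 863, 866 and 835 CPM at 3 months and 92.9 and 55.2 CPM at 6 months (log2 fold change -3.53 ± 0.24 (SE), adjusted p = 0.000374). Fcer2a, the low-affinity IgE receptor CD23, had 191, 118 and 166 CPM at 3 months and 19.3 and 12.8 CPM at 6 months (-3.30 ± 0.38, adjusted p = 0.00221). The next falls by size, among genes with at least 10 CPM, were in Rapgef4 (-2.72 ± 0.18, adjusted p = 0.000292), Emid1 (-2.62 ± 0.34, adjusted p = 0.00175), the chemokine receptor Ccr6 (-2.57 ± 0.26, adjusted p = 0.00103), the interleukin receptor Il9r (-2.51 ± 0.56, adjusted p = 0.0235), Map3k19 (-2.47 ± 0.21, adjusted p = 0.000571) and Icosl (-2.44 ± 0.24, adjusted p = 0.000946). Gdf11, St8sia1, the kinase Lrrk2 and the granzyme gene Gzma, an NK and T cell gene, closed the list of 12 falls at log2 fold changes between -2.15 and -2.34. Here and in what follows, a gene said not to pass without certain libraries lost its call when any 1 of them was left out. Il9r and Lrrk2 did not pass without replicate 1, 2 or 3 at 3 months (adjusted p between 0.0503 and 0.063). Gzma did not pass without replicate 1 or 2 at 6 months (adjusted p between 0.0771 and 0.0775). Lrrk2 had a log2 fold change of -3.27 without replicate 1 at 6 months.

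**Figure D3:**
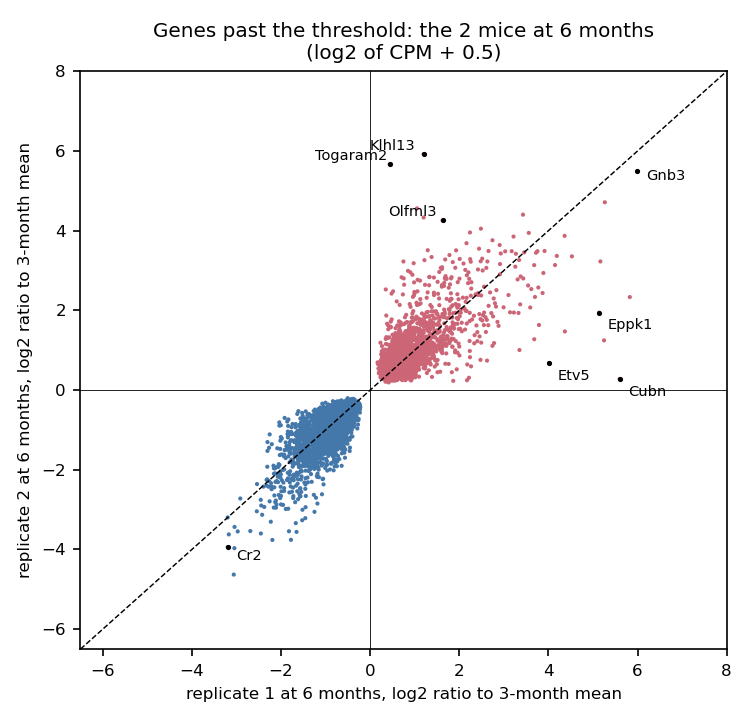
Log2 ratio of each 6-month library to the mean of the 3 libraries at 3 months (log2 of CPM + 0.5) for the 4227 genes past the threshold, replicate 1 on the horizontal and replicate 2 on the vertical axis, red where higher and blue where lower at 6 months. Points off the dashed diagonal, such as Cubn and Etv5 on the right and Klhl13 and Togaram2 at the top, were high in 1 of the 2 mice.

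The 2 mice at 6 months differed from each other more than those at 3 months did. The chi-square per gene between 2 libraries was 61 at 6 months and between 7.95 and 12.9 at 3 months, and 282 of the genes past the threshold differed over 2-fold between the 6-month mice. On the first 2 principal components of these 5 libraries, age lay along the first (60.3% of the variance) and the 6-month mice were apart along the second (25.7%). In replicate 1, Cubn had 2.37, 2.46 and 1.65 CPM at 3 months and 127 and 2.69 CPM at 6 months, Eppk1 had 5.28, 6.96 and 6.66 CPM at 3 months and 237 and 25.5 CPM at 6 months, and the ETS factor Etv5 had 4.75, 5.87 and 3.21 CPM at 3 months and 80.1 and 7.49 CPM at 6 months. In replicate 2, Klhl13, an adaptor of a ubiquitin ligase, had 0.23, 0.145 and 0.47 CPM at 3 months and 1.27 and 46.3 CPM at 6 months. Togaram2 had 0.0766, 0.0725 and 0.392 CPM at 3 months and 0.401 and 33.2 CPM at 6 months, and Olfml3 had 1.99, 2.17 and 2.74 CPM at 3 months and 8.09 and 52.7 CPM at 6 months. Each of these genes passed the threshold although 1 mouse carried most of the rise. Without replicate 1 at 6 months the log2 fold change was 0.33 in Cubn and 0.71 in Etv5, and without replicate 2 it was 2.17 in Klhl13 and 1.15 in Togaram2. Beyond the rule, Ighg2b, an IgG heavy chain, differed most plainly among abundant genes, with 187, 759 and 270.4 CPM at 3 months and 2844 and 28.5 CPM at 6 months (1.83 ± 1.54, adjusted p = 0.441, which did not pass). The cyclin gene Ccnd2 had 137, 192 and 169 CPM at 3 months and 632 and 172 CPM at 6 months (1.27 ± 0.48, adjusted p = 0.109), with replicate 2 at the level of 3 months. Cubn, Eppk1, Etv5, Klhl13, Olfml3 and Togaram2 did not pass without replicate 1 or 3 at 3 months (adjusted p between 0.0527 and 0.141). Cubn, Eppk1, Etv5, Klhl13 and Togaram2 did not pass without replicate 2 at 3 months (adjusted p between 0.0579 and 0.116). Cubn and Etv5 did not pass without replicate 1 at 6 months (adjusted p between 0.168 and 0.558). Klhl13 and Togaram2 did not pass without replicate 2 at 6 months (adjusted p between 0.146 and 0.457). Cubn, Etv5, Klhl13 and Togaram2 did not pass without Eµ-TCL1 replicate 1 or 2 at 3 months, or Eµ-TCL1 replicate 1 or 2 at 6 months (adjusted p between 0.0558 and 0.0882). Eppk1 had a log2 fold change of 2.02 without replicate 1 at 6 months. Olfml3 had a log2 fold change of 1.82 without replicate 2 at 6 months.

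Over 8937 protein-coding genes with at least 10 CPM, the median log2 ratio to the 3-month mean was 0.130 in replicate 1 and 0.119 in replicate 2 at 6 months. The medians of the single chromosomes lay within 0.0503 and 0.185.

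Among genes of B cell identity, most pan B cell genes did not pass, and all that passed but Ptprc rose. Of 20 pan B cell genes, 7 were higher and 1 lower (median log2 fold change 0.12), against 12.1% and 10.4% of all genes, and 4 were higher without replicate 3 at 3 months. The kinase Blk rose from 264, 270.3 and 222 CPM to 550.2 and 667 CPM (log2 fold change 1.27 ± 0.15 (SE), adjusted p = 0.00139), Ms4a1 by a log2 fold change of 0.90, the Fc receptor-like Fcrla by 1.32 and the octamer coactivator Pou2af1 by 0.95. Ptprc (CD45) fell by 0.62 on the log2 scale. Bank1 (0.02) and Cd79a (0.11) did not pass. The sum of the list lay between 10331 and 11721 CPM at 3 months and was 11349 and 12500 CPM at 6 months, and the direction of its median turned with library totals alone (-0.07). Ptprc did not pass without replicate 1 or 3 at 3 months, or replicate 2 at 6 months (adjusted p between 0.0741 and 0.090).

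Genes of follicular B cells, the recirculating majority of splenic B cells, numbered 15, of which 7 fell (46.7%) and 1 rose (6.67%), against 10.4% and 12.1% of all genes (median -0.27). Beside Cr2 and Fcer2a, Ighd, the IgD heavy chain, had 467, 294 and 331 CPM at 3 months and 71.7 and 93.7 CPM at 6 months (log2 fold change -2.14 ± 0.24 (SE), adjusted p = 0.00143). Both libraries at 6 months were below all at 3 months. Ccr7, Cd55 and Gpr183 also fell. Cxcr5, the receptor that guides B cells to follicles, went the other way, with 199, 207 and 179.6 CPM at 3 months and 290 and 416 CPM at 6 months (0.86 ± 0.15, adjusted p = 0.00597). Btla, the most abundant member that did not pass, had 668, 492 and 526 CPM at 3 months and 318 and 630 CPM at 6 months. Cd55 and Gpr183 did not pass without replicate 1 or 3 at 3 months, Eµ-TCL1 replicate 1 or 2 at 3 months, or Eµ-TCL1 replicate 1 or 2 at 6 months (adjusted p between 0.0508 and 0.104). Cd55 did not pass without replicate 2 at 3 months (adjusted p = 0.0546). Gpr183 did not pass without replicate 2 at 6 months (adjusted p = 0.152). Cd55 had a log2 fold change of -0.58 without replicate 1 at 6 months. Cd55 had a log2 fold change of -1.53 without replicate 2 at 6 months.

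Marginal zone genes split. Of 12, 3 rose and 4 fell (median -0.19, of opposite sign without replicate 2 at either age). The shares were 25% and 33.3%, against 28.2% and 10.1% of all listed genes. The sphingosine receptor S1pr3 had 18.8, 27 and 18.8 CPM at 3 months and 186 and 113 CPM at 6 months (log2 fold change 2.80 ± 0.36 (SE), adjusted p = 0.00339), and Mzb1, a chaperone of IgM, 86.4, 155 and 90.5 CPM at 3 months and 314 and 468 CPM at 6 months (1.82 ± 0.29, adjusted p = 0.00662). The tetraspanin Cd9 also rose (1.44). Against these, Cd1d1, which presents lipids to NKT cells, had 51.4, 72 and 52.2 CPM at 3 months and 26.3 and 28.9 CPM at 6 months (-1.08 ± 0.16, adjusted p = 0.00277), and Cr2, Tm6sf1 (-1.05) and Asb2 (-0.95) fell as well. Notch2, the receptor required for this lineage, did not pass (-0.23). Asb2 did not pass without replicate 2 or 3 at 3 months, or replicate 1 or 2 at 6 months (adjusted p between 0.0513 and 0.0635).

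Genes linked to B1a cells had the highest median of the 58 lists, 1.43, with 11 of 16 higher. This number was 9 to 12 when a library of this comparison was left out. It was 5 with the replicate number as a block in the fit. Il10, the cytokine of regulatory and B1a B cells, had 1.91, 2.39 and 1.65 CPM at 3 months and 23.1 and 20.6 CPM at 6 months (log2 fold change 3.45 ± 0.22 (SE), adjusted p = 0.000236). Zbtb32, a transcriptional repressor, had 9.95, 16.1 and 10.1 CPM at 3 months and 161 and 133 CPM at 6 months (3.61 ± 0.33, adjusted p = 0.00106). Ahnak, a scaffold protein of the cell periphery, had 3089, 3136 and 2737 CPM at 3 months and 14985 and 10856 CPM at 6 months (2.11 ± 0.15, adjusted p = 0.000397). The phosphatase Ptpn22, which dampens antigen receptor signals, had 170.3, 165 and 170.4 CPM at 3 months and 420 and 482 CPM at 6 months (1.42 ± 0.12, adjusted p = 0.000623). In all of these genes both 6-month mice were far above every 3-month mouse. Bhlhe41, a factor that B1a cells need for self-renewal, was added after its values were seen and had 12.6, 20.1 and 15.8 CPM at 3 months and 90.9 and 153 CPM at 6 months (2.92 ± 0.45, adjusted p = 0.0066). Cd5, the surface marker of the subset, was also added after its values were seen: it had 62.2, 57.6 and 64 CPM at 3 months and 44 and 55.4 CPM at 6 months and did not pass (-0.30, adjusted p = 0.201). Spn (CD43) did not pass either (-0.34, adjusted p = 0.0513).

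**Figure D4:**
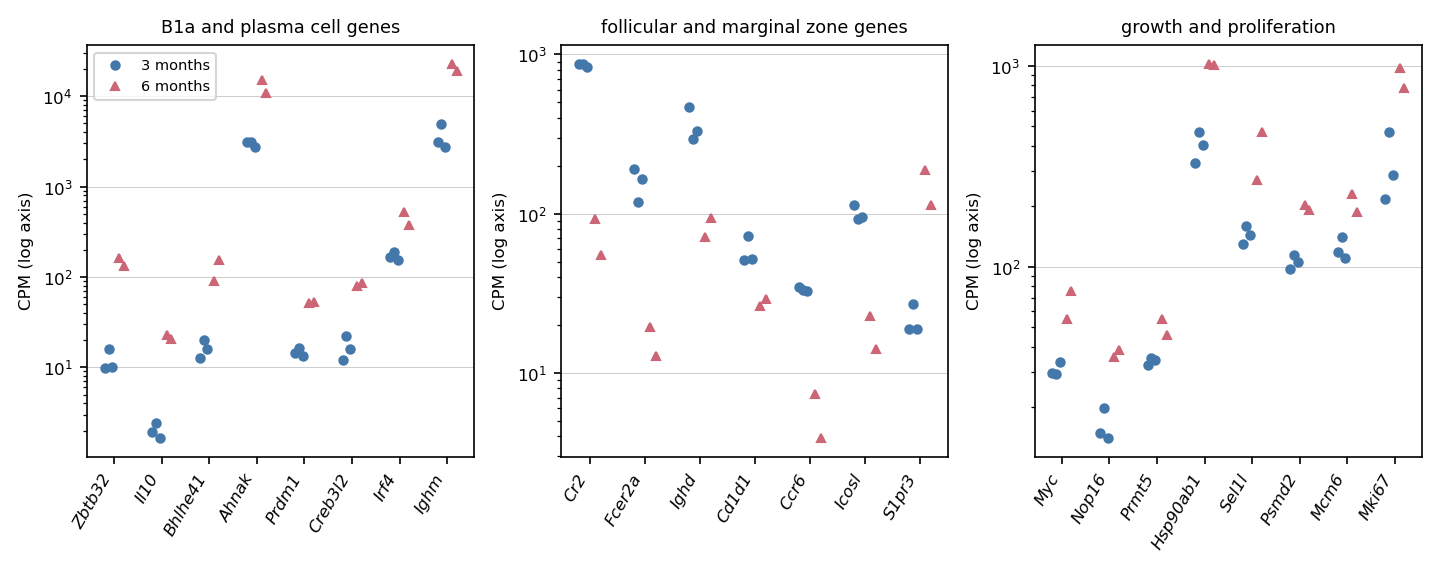
CPM (log axis) of named genes in each library, circles for the 3 libraries at 3 months and triangles for the 2 at 6 months. In the left panel all 6-month values lie above those at 3 months, in the middle panel all but S1pr3 lie below, and in the right panel all lie above, with the smallest gaps in Prmt5 and Mcm6.

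Plasma cell genes rose in 10 of 15 cases (median 1.24), and in 6 with the replicate number as a block in the fit. The factors of plasma cell fate were among them. Prdm1 (BLIMP1) had 14.6, 16.4 and 13.5 CPM at 3 months and 51.8 and 53.3 CPM at 6 months (log2 fold change 1.83 ± 0.21 (SE), adjusted p = 0.00129), and Irf4 had 167, 188 and 154 CPM at 3 months and 526 and 373 CPM at 6 months (1.402 ± 0.15, adjusted p = 0.00106). Creb3l2, a membrane-bound factor of secretory cells, had 11.9, 22.3 and 16.1 CPM at 3 months and 79.8 and 86.1 CPM at 6 months (2.30 ± 0.22, adjusted p = 0.000818), and the elongation factor Ell2, which favours secreted immunoglobulin messages, rose by 1.01 on the log2 scale. Jchain, which joins IgM pentamers, did not pass, with 486, 888 and 497 CPM at 3 months and 494 and 500.3 CPM at 6 months; replicate 2 at 3 months was the highest of the 5 libraries.

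Among the immunoglobulin constant regions, IgM and kappa messages rose while IgD fell. Ighm had 3122, 4934 and 2773 CPM at 3 months and 22582 and 19112 CPM at 6 months (log2 fold change 2.53 ± 0.27 (SE), adjusted p = 0.00129). Igkc had 587, 900.1 and 645 CPM at 3 months and 1813 and 2751 CPM at 6 months (1.68 ± 0.23, adjusted p = 0.00299), and Iglc3 rose by 1.23. Immunoglobulin genes together took 0.821, 1.18 and 0.768% of all counts at 3 months and 3.56 and 2.67% at 6 months, without overlap. Of 7 tested genes of immature B cells, Cd93 (1.23), Cd24a (1.29) and Myb (1.02) rose and Dntt fell (-1.85), and the median of the list was -0.28. Dntt did not pass without replicate 3 at 3 months, or replicate 2 at 6 months (adjusted p between 0.0537 and 0.0564).

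Genes that mark human CLL did not move as a group. Of 13 tested, 4 rose and 4 fell (median -0.30), and 2 rose without replicate 1 or replicate 3 at 3 months or with library totals alone. Each share was 30.8%, against 28.2% higher and 10.1% lower among all listed genes. Beside Il10 and Ptpn22, Crem (0.51) and Cd38 (0.64) rose. Zap70 (-1.07), Lef1 (-1.84), Itga4 (-0.84) and Notch1 (-0.64) fell. Lef1 and Zap70 are also expressed in T cells, whose markers had a median of -1.15. Germinal center genes were higher in 1 (7.14%) and lower in 2 (14.3%) of 14 cases, near the shares of all genes, and lower in 6 without replicate 1 at 6 months. Bach2, the repressor that holds B cells from plasma cell fate, had 147, 117 and 135 CPM at 3 months and 29.1 and 35.2 CPM at 6 months (log2 fold change -2.05 ± 0.19 (SE), adjusted p = 0.000717), and Bcl2, the survival gene that is high in human CLL, did not pass (-0.13). Cd38 and Crem did not pass without replicate 1 at 3 months, replicate 1 at 6 months, or Eµ-TCL1 replicate 1 or 2 at 6 months (adjusted p between 0.0518 and 0.248). Crem did not pass without replicate 2 at 3 months (adjusted p = 0.0884). Cd38, Crem and Notch1 did not pass without replicate 3 at 3 months (adjusted p between 0.0602 and 0.133). Crem and Notch1 did not pass without replicate 2 at 6 months (adjusted p between 0.0742 and 0.121). Cd38 did not pass without Eµ-TCL1 replicate 1 or 2 at 3 months (adjusted p between 0.0633 and 0.0711).

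Among 38 lymphoid transcription factors, 5 rose and 13 fell (median -0.21), and 3 rose without replicate 1 or replicate 3 at 3 months. The shares were 13.2% and 34.2%, against 28.2% and 10.1% of all listed genes. Ahr, the aryl hydrocarbon receptor, had 39.2, 44.6 and 38.6 CPM at 3 months and 141 and 114 CPM at 6 months (log2 fold change 1.65 ± 0.18 (SE), adjusted p = 0.00106), and Nfatc1, the calcium-regulated factor of B1a cells, 141, 129 and 143 CPM at 3 months and 303 and 380.5 CPM at 6 months (1.31 ± 0.17, adjusted p = 0.00202). Tcf4 also rose (0.97). Satb1, a chromatin organiser of lymphocytes, had 489, 370.2 and 495 CPM at 3 months and 116 and 89.1 CPM at 6 months (-2.14 ± 0.17, adjusted p = 0.000461). Runx3 (-1.52), Stat4 (adjusted p = 0.00144), Bcl11b (-1.50) and, among Wnt genes, Tcf7 (-1.45) fell too. Runx3, Stat4, Bcl11b and Tcf7 are T cell or NK cell genes as well, and the markers of those cells fell by medians of 1.15 and 1.52 on the log2 scale. Tcf4 did not pass without replicate 1 or 3 at 3 months (adjusted p between 0.059 and 0.0648). Tcf4 had a log2 fold change of 0.54 without replicate 2 at 6 months.

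Of 20 genes of B-cell receptor signalling, 5 rose and 1 fell (median 0.18, turning to -0.01 with library totals alone), and 3 rose without replicate 1 or 3 at 3 months, without replicate 2 at 6 months or with library totals alone. The shares of 25% and 5% were below the 28.2% and 10.1% of all listed genes. The kinase Syk, the first enzyme after the receptor, had 578, 618 and 579 CPM at 3 months and 1134 and 1213 CPM at 6 months (log2 fold change 0.99 ± 0.16 (SE), adjusted p = 0.00408), and phospholipase Plcg2 had 322, 348 and 318 CPM at 3 months and 591 and 719 CPM at 6 months (0.99 ± 0.14, adjusted p = 0.00248). Bcl10 rose by 0.51. The Ras activator Rasgrp3 fell, with 106, 100.1 and 96.5 CPM at 3 months and 48.3 and 21.2 CPM at 6 months (-1.54 ± 0.33, adjusted p = 0.0175). The inhibitors of the same pathway were higher in 4 and lower in 4 of 16 cases (2 higher without replicate 1 or 3 at 3 months or with library totals alone). Each share was 25%, against 28.2% higher and 10.1% lower among all listed genes. The inhibitory Fc receptor Fcgr2b had 103, 122 and 93.9 CPM at 3 months and 536 and 239 CPM at 6 months (1.87 ± 0.34, adjusted p = 0.0115), Fcrl5 had 52.7, 76.3 and 56 CPM at 3 months and 219.8 and 130.4 CPM at 6 months (1.50 ± 0.24, adjusted p = 0.00526), and the phosphatases Inpp5d (SHIP1, 0.54) and Ptpn6 (SHP1, 0.37) rose less. The adaptors Dok2 (-1.17) and Pag1 (-1.07), the ubiquitin ligase Cblb (-0.67) and Pecam1 (-0.74) fell. In the PI3K and mTOR list only 3 of 21 passed. Rictor fell (-0.42) and Pik3r1 rose (0.42). Bcl10, Inpp5d, Pecam1, Pik3r1, Ptpn6, Rasgrp3 and Rictor did not pass without replicate 1 or 3 at 3 months (adjusted p between 0.051 and 0.112). Inpp5d and Ptpn6 did not pass without replicate 2 at 3 months (adjusted p between 0.0509 and 0.0586). Pecam1 did not pass without replicate 1 at 6 months (adjusted p = 0.0721). Bcl10, Pik3r1, Ptpn6 and Rictor did not pass without replicate 2 at 6 months (adjusted p between 0.0752 and 0.161). Pik3r1, Ptpn6 and Rictor did not pass without Eµ-TCL1 replicate 1 at 3 months (adjusted p between 0.053 and 0.0584). Pecam1, Pik3r1, Ptpn6 and Rictor did not pass without Eµ-TCL1 replicate 2 at 3 months (adjusted p between 0.050 and 0.0594). Fcgr2b had a log2 fold change of 1.18 without replicate 1 at 6 months.

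Of 16 NF-kB genes, 3 rose and 3 fell (18.8% each, against 28.2% and 10.1% of all listed genes). Without replicate 1 at 3 months 1 rose and 1 fell, without replicate 3 at 3 months 1 rose, without replicate 1 at 6 months 5 rose and 1 fell, and with library totals alone 5 fell. Nfkbid (0.99), Cd83 (0.93) and Icam1 (0.66) rose, and Nfkb2 (-0.54), Traf1 (-0.69) and Nfkbia (-0.31) fell. Of 19 genes of the Toll-like receptor pathway, 5 rose and 2 fell (26.3% and 10.5%, near the shares of all listed genes). The rises numbered 3 without replicate 3 at 3 months or with library totals alone and 10 without replicate 2 at 6 months. The kinase Irak2 (1.15 ± 0.11, adjusted p = 0.000816), the adaptor Tirap (1.07 ± 0.11, adjusted p = 0.000849) and Ly86 (MD-1, 1.02 ± 0.11, adjusted p = 0.00103) rose by about the same amount, and Tlr1 fell (-0.90 ± 0.11, adjusted p = 0.0015). Interferon response genes were mostly negative, 23 of 26, with 4 past the threshold as lower and 1 as higher in edgeR and 6 and 1 in DESeq2 (median -0.46), while 13 were lower without replicate 1 at 6 months and 7 with library totals alone. Ifit3 had 24.8, 37.8 and 30.9 CPM at 3 months and 10.9 and 5.54 CPM at 6 months (log2 fold change -1.92 ± 0.31 (SE), adjusted p = 0.0048), and Ifit2 (-1.14) and Usp18 (-0.87) fell, while the RNA sensor Ddx58 rose (0.40). The list's median ratio to the 3-month mean was -0.10 in replicate 1 and -0.95 in replicate 2. Of 15 Notch genes 2 fell (13.3%, near the 10.4% of all genes). This number was 4 without replicate 1 at 6 months or with library totals alone and 1 without replicate 1 at 3 months or replicate 2 at 6 months, and both calls were lost without replicate 3 at 3 months. Of 15 Wnt genes 4 fell (26.7%) and 1 rose (6.67%), and 3 to 5 fell under these alternatives. Ddx58, Icam1, Nfkbia, Nfkbid and Traf1 did not pass without replicate 1 at 3 months (adjusted p between 0.0504 and 0.0834). Nfkb2 and Nfkbia did not pass without replicate 2 at 3 months, or replicate 1 at 6 months (adjusted p between 0.0591 and 0.163). Cd83, Ddx58, Icam1, Nfkb2, Nfkbia and Traf1 did not pass without replicate 3 at 3 months (adjusted p between 0.0548 and 0.115). Ddx58, Nfkbia and Traf1 did not pass without replicate 2 at 6 months (adjusted p between 0.0658 and 0.0888). Nfkbia did not pass without Eµ-TCL1 replicate 1 or 2 at 3 months, or Eµ-TCL1 replicate 1 or 2 at 6 months (adjusted p between 0.054 and 0.0782). Cd83 had a log2 fold change of 0.55 without replicate 2 at 6 months. Nfkbid had a log2 fold change of 0.63 without replicate 2 at 6 months.

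Receptors and ligands that B cells use to talk to T cells changed in both directions. Cd80 had 10.8, 17 and 13 CPM at 3 months and 66.4 and 80.6 CPM at 6 months (log2 fold change 2.43 ± 0.27 (SE), adjusted p = 0.0014), and its relative Cd86 48.1, 65.1 and 47.7 CPM at 3 months and 98.3 and 112 CPM at 6 months (0.97 ± 0.16, adjusted p = 0.00507). Icosl, the ligand of ICOS on helper T cells, had 113, 91.9 and 95.5 CPM at 3 months and 22.6 and 14.2 CPM at 6 months. Cd40, the receptor for T cell help, had 77.3, 68.9 and 63.2 CPM at 3 months and 31.6 and 33.9 CPM at 6 months (-1.09 ± 0.13, adjusted p = 0.0013), and Il21r fell by 1.37 on the log2 scale. Of 28 cytokine and TNF family receptors, 3 rose and 7 fell (10.7% and 25%, against 28.2% and 10.1% of all listed genes, median -0.22). This number of falls was 3 without replicate 1 or replicate 3 at 3 months, 4 without replicate 2 of either age, 14 without replicate 1 at 6 months and 11 with library totals alone. The interleukin 5 receptor Il5ra, a B1 cell receptor, had 63.7, 61.9 and 46.8 CPM at 3 months and 207 and 531 CPM at 6 months (2.68 ± 0.50, adjusted p = 0.0144). Tnfrsf13b (TACI) rose by 1.00 and Csf2rb by 1.29. Of 24 cytokines and TNF family ligands, 2 rose (8.33%) and 6 fell (25%), with 3, 3 and 2 falls without replicate 1, 2 or 3 at 3 months. Besides Il10, Ccl22, a chemokine for regulatory T cells, had 0.153, 0.507 and 0.392 CPM at 3 months and 5.01 and 2.69 CPM at 6 months (3.42 ± 0.47, adjusted p = 0.00219), and Lta, the lymphotoxin that shapes lymphoid tissue, fell to 1.00 and 1.05 CPM from 6.74, 4.86 and 6.9 CPM. Of 24 immune checkpoint genes 6 rose (25%, against 28.2% of all listed genes), Ctla4 among them (0.73), and 3 fell (12.5%). Leaving out any library at 3 months left 1 fall, 9 rose without replicate 2 at 6 months, and 5 rose and 5 fell with library totals alone. Il5ra did not pass without replicate 1 at 3 months, or replicate 2 at 6 months (adjusted p between 0.0502 and 0.0541). Csf2rb and Il5ra did not pass without replicate 3 at 3 months (adjusted p between 0.0557 and 0.0563). Csf2rb did not pass without replicate 1 at 6 months (adjusted p = 0.0961).

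Of 28 homing receptors and integrins, 4 rose and 8 fell (median -0.32), with 5 falls without replicate 1 or 3 at 3 months and 14 without replicate 1 at 6 months. The shares were 14.3% and 28.6%, against 28.2% and 10.1% of all listed genes. The integrin chain Itgb1 had 332, 356 and 272 CPM at 3 months and 1043 and 687 CPM at 6 months (log2 fold change 1.43 ± 0.18 (SE), adjusted p = 0.00156), and Cd44, a receptor for hyaluronan, rose by 1.03. Ccr6 had 34.8, 32.9 and 32.8 CPM at 3 months and 7.35 and 3.89 CPM at 6 months, Cxcr6 fell by 1.28 and Itga4 by 0.84 on the log2 scale. Genes of the actin cytoskeleton rose in 14 and fell in 2 of 34 cases, with 8 and 9 rises without replicate 1 or 3 at 3 months and 9 with library totals alone. Capg, an actin capping protein, had 97.7, 109 and 97.3 CPM at 3 months and 299.6 and 309 CPM at 6 months (1.59 ± 0.10, adjusted p = 0.000233), the smallest adjusted p of that list. The intermediate filament gene Vim had 282, 339 and 287 CPM at 3 months and 1727 and 1012 CPM at 6 months (2.18 ± 0.20, adjusted p = 0.00077). Rhoh, a GTPase of blood cells, fell (-0.98).

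Genes of cell growth were higher by small amounts. Myc had 29.8, 29.4 and 33.5 CPM at 3 months and 54.9 and 76 CPM at 6 months (log2 fold change 1.08 ± 0.15 (SE), adjusted p = 0.00251), and of 11 genes of the MYC network Mxi1 was the other that passed (0.63). Of 40 ribosome biogenesis genes 31 were higher (77.5%), with a median of 0.60, 0.47 in replicate 1 and 0.62 in replicate 2. With library totals alone 17 of the 40 passed, and without replicate 3 at 3 months 20 did, in each case as higher. With the replicate number as a block in the fit 14 passed, also as higher. Nop16 had 14.9, 19.7 and 14 CPM at 3 months and 35.8 and 38.5 CPM at 6 months (1.19 ± 0.16, adjusted p = 0.00194), Nolc1 60.4, 64.1 and 64.5 CPM at 3 months and 104 and 115 CPM at 6 months (0.80 ± 0.09, adjusted p = 0.00136) and Polr1b, a subunit of RNA polymerase I, 39.6, 38.1 and 38.2 CPM at 3 months and 65.2 and 76.4 CPM at 6 months (0.87 ± 0.10, adjusted p = 0.00136). Pes1, a member of the PeBoW complex of large subunit maturation, rose by 0.60. Of 34 translation initiation factors 22 rose (median 0.46), among them the eIF3 subunits Eif3a (0.64), Eif3b (0.82), Eif3c (0.64) and Eif3d (0.69). The number of rises was 14 and 13 without replicate 1 or 3 at 3 months, 11 with library totals alone and 6 with the block. Ribosomal protein genes rose in 17 of 86 cases (19.8%, median 0.31), 4, 2 and 5 without replicate 1 or 3 at 3 months or replicate 2 at 6 months, 48 without replicate 1 at 6 months and 7 with library totals alone, with medians of 0.09 in replicate 1 and 0.50 in replicate 2. Rps2 rose by 0.97 and Rpl4 by 0.71. Rps16 had a log2 fold change of 3.54, but ribosomal protein genes have near-identical processed copies elsewhere in the genome, and this value is uncertain because fragments could be split between them. Mxi1, Rpl4 and Rps16 did not pass without replicate 1 or 3 at 3 months (adjusted p between 0.0507 and 0.111). Rps16 did not pass without replicate 2 at 3 months, or replicate 2 at 6 months (adjusted p between 0.0795 and 0.128). Mxi1 and Rps16 did not pass without replicate 1 at 6 months (adjusted p between 0.085 and 0.143).

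Mouse Prmt5 had 32.4, 35.1 and 34.5 CPM at 3 months and 54.9 and 45.7 CPM at 6 months (log2 fold change 0.56 ± 0.12 (SE), adjusted p = 0.0105). Fragments of the human transgene could align in part to this gene, and how many did was not tested. Of 14 genes of the PRMT5 complex and other arginine methyltransferases, 5 rose (median 0.24), 3 without replicate 2 at 6 months and 2 with library totals alone. Prmt7, which makes monomethyl marks, rose by 0.99, Prmt1, the main enzyme of asymmetric marks, by 0.56, and Clns1a (pICln), which brings Sm proteins to PRMT5, by 0.47. Wdr77 did not pass (24, 22.2 and 24.4 CPM at 3 months and 24.7 and 26.9 CPM at 6 months). Among 26 genes of Sm proteins and the SMN complex, the substrates and partners of PRMT5 in spliceosome assembly, 8 rose (median 0.29). This share of 30.8% was near the 28.2% of all listed genes. Only 1 rose without replicate 1 or replicate 3 at 3 months, and 5 and 3 without replicate 1 or 2 at 6 months. The calls of this list were lost with library totals alone. Snrpb rose by 0.46, Snrpd2 by 0.57 and Gemin5 by 0.47. Of 35 splicing regulators 10 rose (28.6%, near the 28.2% of all listed genes) and 1 fell (2.86%), but 7 rose and 5 fell with library totals alone. Hnrnpc (0.69) and U2af2 (0.72) rose, and Mbnl1 fell (-0.55). Mbnl1, Snrpb and Snrpd2 did not pass without replicate 1 at 3 months (adjusted p between 0.0514 and 0.0604). Snrpb and Snrpd2 did not pass without replicate 3 at 3 months (adjusted p between 0.0602 and 0.0723). Prmt1 and Snrpd2 did not pass without replicate 2 at 6 months (adjusted p between 0.0581 and 0.0789).

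Genes of nucleotide and one-carbon metabolism rose in 18 of 30 cases and fell in 1 (median 0.58). The rises numbered 13 without replicate 1 at 3 months and 5 with the replicate number as a block in the fit. The polyamine enzymes Odc1 and Srm had 49.3, 69 and 50.4 CPM at 3 months and 129.9 and 117 CPM at 6 months (log2 fold change 1.13 ± 0.16 (SE), adjusted p = 0.00236) and 10.6, 16.1 and 11.1 CPM at 3 months and 32.7 and 32.4 CPM at 6 months (1.37 ± 0.21, adjusted p = 0.00317). Atic (0.72) and Gart (0.74) of purine synthesis rose, and Impdh1 fell (-0.81). Glycolysis genes rose in 8 and fell in 2 of 23 cases. Tpi1 had 50.7, 64.1 and 51.5 CPM at 3 months and 146 and 139 CPM at 6 months (1.36 ± 0.15, adjusted p = 0.00106) and Gapdh rose by 1.30, while Pdk1, which keeps pyruvate from mitochondria, fell (-0.79). The list's median was 0.54 in replicate 1 and -0.04 in replicate 2. Oxidative phosphorylation genes rose in 15 of 42 cases (median 0.38), in 3 without replicate 1 or replicate 3 at 3 months, 7 without replicate 2 at 6 months and 6 with library totals alone, led by Atp5g1 (0.96) and Atp5b (0.82). In lipid synthesis, the citrate lyase Acly had 227, 247 and 214 CPM at 3 months and 427 and 577 CPM at 6 months (1.13 ± 0.13, adjusted p = 0.00133), and Sqle (-0.72) of the cholesterol genes fell. Impdh1 and Pdk1 did not pass without replicate 1 or 3 at 3 months (adjusted p between 0.0591 and 0.108). Pdk1 did not pass without replicate 1 at 6 months (adjusted p = 0.0507). Impdh1 did not pass without replicate 2 at 6 months, or Eµ-TCL1 replicate 2 at 3 months (adjusted p between 0.0527 and 0.133).

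Genes of protein folding and turnover were higher. Of 20 genes of the unfolded protein response, 15 rose (median 0.76), 9 without replicate 3 at 3 months and 5 with the replicate number as a block. Sel1l, which draws misfolded proteins from the endoplasmic reticulum, had 130.1, 159 and 144 CPM at 3 months and 271 and 467 CPM at 6 months (log2 fold change 1.35 ± 0.20 (SE), adjusted p = 0.0033), and the disulfide isomerase Pdia6 83.7, 104 and 98.2 CPM at 3 months and 164 and 168 CPM at 6 months (0.80 ± 0.11, adjusted p = 0.00207). Atf6 (0.71) and Hyou1 (0.73) rose, and Pdia3 did not pass (0.32). Proteasome subunits had positive values in 31 of 31 cases, of which 23 passed (median 0.49). This number was 11 and 10 without replicate 1 or 3 at 3 months, 10 with library totals alone and 5 with the block. Psmd2 had 97.8, 115 and 106 CPM at 3 months and 204 and 192 CPM at 6 months (0.90 ± 0.11, adjusted p = 0.00142) and Psmd11 48.5, 50.5 and 51.7 CPM at 3 months and 85.7 and 88.9 CPM at 6 months (0.80 ± 0.10, adjusted p = 0.0014). Chaperones rose in 14 of 21 cases (median 0.69), in 11 without replicate 1 or 3 at 3 months and in 5 with the block. Hsp90ab1 had 329, 467 and 404 CPM at 3 months and 1021 and 1017 CPM at 6 months (1.35 ± 0.14, adjusted p = 0.000856), Hspa8 519, 840.1 and 714 CPM at 3 months and 1842 and 1506 CPM at 6 months (1.28 ± 0.19, adjusted p = 0.00345) and Hspd1 rose by 1.12. The heat-inducible Hspa1b did not pass (1.20, adjusted p = 0.268). The amino acid carriers Slc1a5 (0.71), Slc7a1 (0.97) and Slc7a5 (0.93) rose.

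Of 30 DNA replication genes 13 rose (median 0.70), 19 in DESeq2, but only 1 without replicate 1 or without replicate 3 at 3 months, 3 without replicate 1 or replicate 2 at 6 months and 5 with library totals alone. Mcm6, a helicase subunit, had 118, 140.1 and 111 CPM at 3 months and 229 and 188 CPM at 6 months (log2 fold change 0.76 ± 0.18 (SE), adjusted p = 0.0209), Mcm10 4.59, 7.03 and 5.49 CPM at 3 months and 18.9 and 24.3 CPM at 6 months (1.92 ± 0.38, adjusted p = 0.011) and the methylation reader Uhrf1 11.1, 21.2 and 14.3 CPM at 3 months and 50.8 and 39.3 CPM at 6 months (1.53 ± 0.33, adjusted p = 0.0161). The mitosis genes had a median of 1.35 and were positive in 30 of 30 cases without overlap between the groups in any, as was true of 26.4% of all genes in that direction, but only Bub1b and Plk1 passed in edgeR, against 17 in DESeq2 and 7 in edgeR without replicate 2 at 3 months. Bub1b, a spindle checkpoint kinase, had 17.3, 33.8 and 22.2 CPM at 3 months and 69.8 and 66.6 CPM at 6 months (1.48 ± 0.38, adjusted p = 0.0321), and Plk1 had 1.53, 2.75 and 2.9 CPM at 3 months and 9.83 and 6.36 CPM at 6 months (1.75 ± 0.50, adjusted p = 0.0389). Mki67, the proliferation marker, had 218, 471 and 285 CPM at 3 months and 976 and 774 CPM at 6 months and did not pass (1.43 ± 0.56, adjusted p = 0.118). Replicate 2 at 3 months was the highest of the 3 younger mice in Bub1b, Mki67 and Uhrf1. Of 20 G1 cyclins and E2F factors 8 rose and 2 fell (5 rises without replicate 1 or 3 at 3 months or with library totals alone), with E2f1 (1.04), E2f2 (0.87) and Cdk2 (0.61) among the rises. Of 14 inhibitors of the cell cycle 4 rose (28.6%, near the 28.2% of all listed genes). Wee1 had 6.2, 10.5 and 9.25 CPM at 3 months and 24.2 and 24.3 CPM at 6 months (1.48 ± 0.26, adjusted p = 0.00543), Rb1 rose by 0.57, and Cdkn2b (0.23, 0.507 and 0.47 CPM at 3 months and 1.27 and 5.32 CPM at 6 months) and Cdkn1a (0.306, 0.652 and 0.0784 CPM at 3 months and 1.6 and 1.2 CPM at 6 months) rose at levels near the limit of a few counts. DNA repair genes rose in 10 of 28 cases, in 4 without replicate 1 or 3 at 3 months, 6 without replicate 2 at 6 months and 5 with library totals alone, with Msh6 (0.72) and Exo1 (1.33) among them. Bub1b, Cdkn1a, Cdkn2b, Mcm6, Plk1 and Uhrf1 did not pass without replicate 1 at 3 months (adjusted p between 0.050 and 0.118). Plk1 did not pass without replicate 2 at 3 months (adjusted p = 0.0744). Bub1b, Cdkn1a, Mcm6, Plk1 and Uhrf1 did not pass without replicate 3 at 3 months, or replicate 1 at 6 months (adjusted p between 0.062 and 0.14). Bub1b, Cdkn1a and Cdkn2b did not pass without replicate 2 at 6 months (adjusted p between 0.052 and 0.102). Cdkn1a did not pass without Eµ-TCL1 replicate 1 or 2 at 3 months, or Eµ-TCL1 replicate 1 or 2 at 6 months (adjusted p between 0.0525 and 0.0612).

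The promoters of these groups were searched for short motifs. RefSeq windows of 300 bases (250 before and 50 after the start, GRCm38.p6) were read on both strands, and 11134 tested genes had at least 1 window, 14116 in all. TTTGAA, the core of the cell cycle homology region, was in 22 of 27 windows of mitosis genes (81.5%) and in 13% of windows of all tested genes. CCAAT, bound by NF-Y, was in 23 of these 27 windows and in 37.5% of all. CCAAT was also in 15 of 16 windows of the unfolded protein response genes (93.8%) and in 19 of 27 of the DNA replication genes (70.4%). TTTCGCGC or TTTGGCGC, forms of the E2F site that can overlap each other, were in 9 of 27 windows of DNA replication genes (33.3%) and in 1.41% of all. CACGTG, the E-box that MYC binds, was in 9 of 38 windows of ribosome biogenesis genes (23.7%) and in 9.49% of all. In the 27 windows of proteasome subunits TTTGAA was in 7.41%, CCAAT in 37% and CACGTG in 3.7%. A match is a description of letters and not a measured site. Windows were available for 26, 16, 24 and 35 genes of the mitosis, unfolded protein response, replication and ribosome biogenesis lists. Windows of the called members with the smallest adjusted p and all motifs of their list are shown 5′ to 3′ on the strand of the gene, with every match to the 4 motifs in capitals (CCAAT, which reads ATTGG on the other strand, and the other motifs named above in either direction).

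Bub1b, a mitosis gene that passed, chr2:118597961-118598260 (+), TTTGAA and CCAAT in capitals:
Bub1b: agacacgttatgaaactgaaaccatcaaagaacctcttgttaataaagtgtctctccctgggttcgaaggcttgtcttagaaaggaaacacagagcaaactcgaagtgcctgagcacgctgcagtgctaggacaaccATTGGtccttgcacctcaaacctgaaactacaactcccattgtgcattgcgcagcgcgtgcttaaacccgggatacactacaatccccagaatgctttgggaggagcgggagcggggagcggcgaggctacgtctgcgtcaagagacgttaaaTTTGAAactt
Plk1, chr7:122159185-122159484 (+), TTTGAA and CCAAT in capitals:
Plk1: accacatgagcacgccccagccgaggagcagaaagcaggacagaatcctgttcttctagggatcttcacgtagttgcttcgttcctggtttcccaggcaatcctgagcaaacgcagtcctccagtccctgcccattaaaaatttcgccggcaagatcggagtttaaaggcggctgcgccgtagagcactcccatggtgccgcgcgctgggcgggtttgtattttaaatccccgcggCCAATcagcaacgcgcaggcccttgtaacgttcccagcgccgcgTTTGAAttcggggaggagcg
Mcm6, a replication gene, chr1:128359656-128359955 (-), with 3 E2F matches, of which the first pair overlap, and 2 CCAAT matches in capitals:
Mcm6: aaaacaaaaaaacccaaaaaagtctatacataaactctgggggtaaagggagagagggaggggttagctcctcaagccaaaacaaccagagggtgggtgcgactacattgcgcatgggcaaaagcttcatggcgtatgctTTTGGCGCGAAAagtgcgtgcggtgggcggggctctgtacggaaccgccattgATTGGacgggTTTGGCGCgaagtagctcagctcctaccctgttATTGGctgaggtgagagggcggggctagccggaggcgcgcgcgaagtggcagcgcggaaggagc
Pdia6, an unfolded protein response gene, chr12:17266339-17266638 (+), with 2 matches to CCAAT:
Pdia6: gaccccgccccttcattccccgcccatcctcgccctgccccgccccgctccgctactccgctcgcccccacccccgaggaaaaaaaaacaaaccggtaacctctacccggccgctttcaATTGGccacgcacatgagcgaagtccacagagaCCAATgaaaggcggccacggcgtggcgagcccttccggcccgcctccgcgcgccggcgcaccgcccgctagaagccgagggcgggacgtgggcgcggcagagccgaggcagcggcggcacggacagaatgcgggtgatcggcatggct
Sel1l, chr12:91849108-91849407 (-), with 4 matches to CCAAT:
Sel1l: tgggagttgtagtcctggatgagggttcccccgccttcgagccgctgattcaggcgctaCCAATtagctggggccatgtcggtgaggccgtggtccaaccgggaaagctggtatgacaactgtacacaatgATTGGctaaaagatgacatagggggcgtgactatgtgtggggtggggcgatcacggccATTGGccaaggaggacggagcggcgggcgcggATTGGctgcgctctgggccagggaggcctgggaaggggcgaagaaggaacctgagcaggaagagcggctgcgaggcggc
Pes1, a ribosome biogenesis gene, chr11:3963725-3964024 (+), with 1 match to CACGTG just after the start:
Pes1: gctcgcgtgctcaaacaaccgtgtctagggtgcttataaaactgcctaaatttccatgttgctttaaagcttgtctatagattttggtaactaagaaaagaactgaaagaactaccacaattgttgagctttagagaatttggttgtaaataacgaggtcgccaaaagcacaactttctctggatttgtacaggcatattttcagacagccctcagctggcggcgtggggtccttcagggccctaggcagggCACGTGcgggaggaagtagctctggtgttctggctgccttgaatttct

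Of 11 anti-apoptotic genes Mcl1 rose, with 737, 905 and 795 CPM at 3 months and 1146 and 1331 CPM at 6 months (log2 fold change 0.61 ± 0.13 (SE), adjusted p = 0.011), and Cflar fell (-0.42). Of 16 pro-apoptotic genes 6 rose and 2 fell, with 1 rise without replicate 1 or 3 at 3 months and 2 with library totals alone. The initiator caspase Casp9 had 22, 27 and 23 CPM at 3 months and 56.7 and 46.7 CPM at 6 months (1.11 ± 0.15, adjusted p = 0.0023), and Bak1 (0.76) and Bax (0.42) rose. Fasl, which is made by T and NK cells, fell (-1.28), as did Bmf (-0.65). Of 15 p53 target genes 4 rose (26.7%, against 12.1% of all genes and 28.2% of all listed genes), with Ccng1 at 0.67 and Phlda3 at 2.15, the latter from below 1 CPM. The number of rises was 2 without replicate 1 at 3 months or replicate 2 at 6 months. It was 1 without replicate 3 at 3 months and 2 with library totals alone. Of 30 chromatin regulators 2 rose (6.67%) and 6 fell (20%), against 12.1% and 10.4% of all genes. The number of falls was 1 without replicate 1 or 3 at 3 months, 2 and 3 without replicate 1 or 2 at 6 months and 11 with library totals alone. The 5-methylcytosine oxidase Tet1 had 19.3, 16.4 and 20.9 CPM at 3 months and 6.15 and 4.19 CPM at 6 months (-1.86 ± 0.26, adjusted p = 0.00236), and the histone methyltransferase Kmt2d 468, 434 and 569 CPM at 3 months and 313 and 299 CPM at 6 months (-0.68 ± 0.19, adjusted p = 0.0334). The maintenance DNA methyltransferase Dnmt1 rose by 0.46. Of 10 MHC class II genes H2-Eb1 alone passed (484, 516 and 436 CPM at 3 months and 1150 and 1177 CPM at 6 months, 1.28 ± 0.30, adjusted p = 0.022), and of 13 class I genes 1 rose (7.69%) and 2 fell (15.4%), near the 12.1% and 10.4% of all genes. With library totals alone 4 class I genes fell. Of 23 immediate early genes 3 rose (13%, near the 12.1% of all genes), 6 without replicate 2 at 6 months and 1 without replicate 3 at 3 months. Jun had 63.4, 50.4 and 60.4 CPM at 3 months and 218 and 116 CPM at 6 months (1.52 ± 0.28, adjusted p = 0.00988), Fosb (1.42) and Cd83 rose as well, and Dusp2 fell (-0.83). Bak1, Bax, Bmf, Dnmt1, Fosb, H2-Eb1 and Kmt2d did not pass without replicate 1 at 3 months (adjusted p between 0.0576 and 0.0895). Bmf did not pass without replicate 2 at 3 months (adjusted p = 0.0836). Bak1, Bax, Bmf, Cflar, Dusp2, Fosb, H2-Eb1, Kmt2d and Phlda3 did not pass without replicate 3 at 3 months (adjusted p between 0.051 and 0.118). Bak1, Bmf, Fosb, H2-Eb1 and Kmt2d did not pass without replicate 1 at 6 months (adjusted p between 0.0866 and 0.153). Bax, Cflar, Fosb, H2-Eb1, Kmt2d and Phlda3 did not pass without replicate 2 at 6 months (adjusted p between 0.0513 and 0.123). Bmf, Fosb and Kmt2d did not pass without Eµ-TCL1 replicate 1 or 2 at 3 months (adjusted p between 0.0542 and 0.0591). Jun had a log2 fold change of 1.01 without replicate 1 at 6 months.

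**Figure D5:**
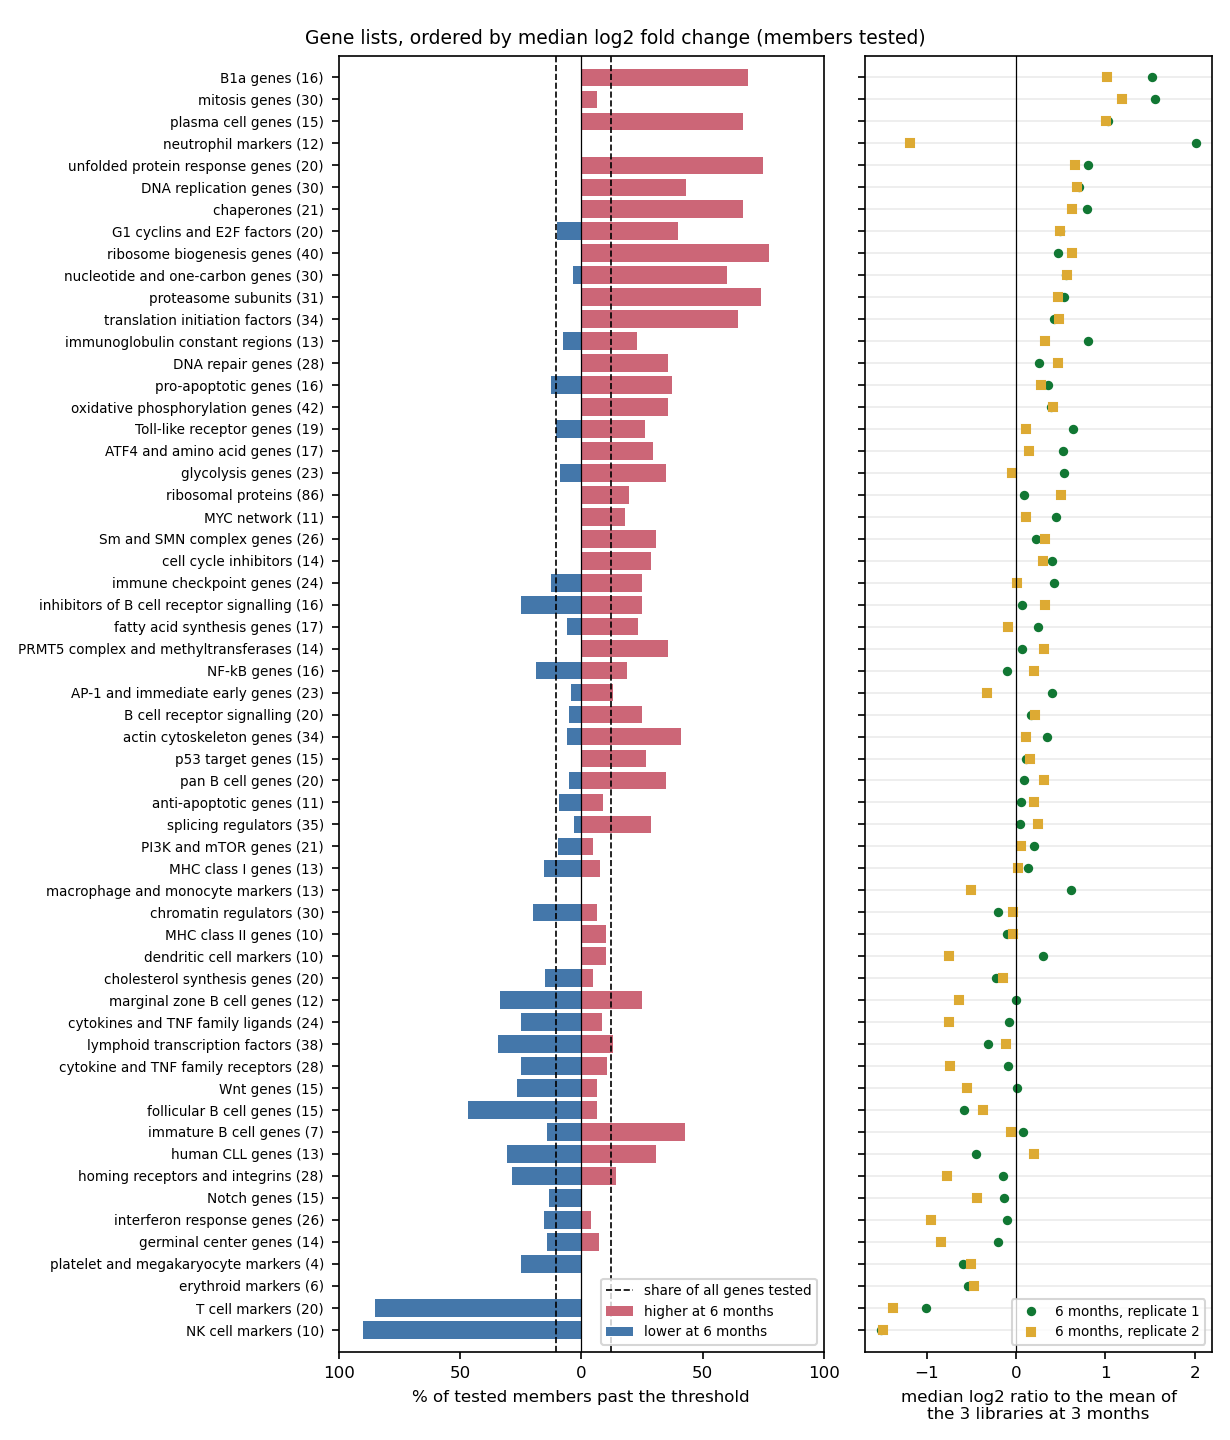
For each gene list, ordered by its median log2 fold change with the number of members tested in brackets, the left panel gives the percent of members past the threshold as higher (red, right) and lower (blue, left) at 6 months, with dashed lines at the 12.1% and 10.4% of all genes, and the right panel the median log2 ratio of replicate 1 (circle) and replicate 2 (square) at 6 months to the 3-month mean. The 2 mice lie close together for ribosome biogenesis, proteasome, unfolded protein response and replication genes and apart for neutrophil, macrophage and interferon response genes.

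For the change from 3 to 6 months in Eµ-TCL1 mice edgeR called 0 genes (1898 at an unadjusted p under 0.05) and 55 in DESeq2. The difference between the genotypes in the change with age was tested itself, and 745 of 18795 genes (3.96%) passed, 411 (2.19%) with a more positive and 334 (1.78%) with a more negative change in Eµ-PRMT5/TCL1 mice. This number was 2 without Eµ-TCL1 replicate 1 at 3 months, 37 and 82 without Eµ-PRMT5/TCL1 replicate 3 and replicate 1 at 3 months and 2359 without Eµ-PRMT5/TCL1 replicate 1 at 6 months, so it depends on single libraries. Of the 4227 genes that changed with age in Eµ-PRMT5/TCL1 mice, 733 were among them. Both comparisons share the Eµ-PRMT5/TCL1 libraries. Both 6-month Eµ-TCL1 libraries had Y-linked counts and both at 3 months did not, so sex and age cannot be told apart in that genotype. Members of the T cell list passed this test in 13 of 20 cases, of the B1a list in 8 of 16, of the plasma cell list and the unfolded protein response list in 7 of 15 and 7 of 20, and of the ribosome biogenesis list in 8 of 40. The numbers were 5 of 21 for chaperones, 5 of 30 for nucleotide and one-carbon genes and 5 of 34 for actin cytoskeleton genes. They were 1 of 31 for proteasome subunits, 1 of 30 for replication genes and 1 of 23 for glycolysis genes. Of the 30 mitosis genes 0 passed in edgeR, 1 in DESeq2 and 2 at an unadjusted p under 0.05. Of the translation initiation factors, ribosomal proteins, oxidative phosphorylation genes and Sm and SMN complex genes, 0 passed in edgeR. The median change with age in Eµ-TCL1 mice was 0.53 for glycolysis and 0.32 for actin cytoskeleton genes. In Eµ-PRMT5/TCL1 mice these medians were 0.32 and 0.17.

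Counting ignored strand, so fragments where genes on opposite strands overlap are ambiguous. Of the 208 genes named here with values, 72 overlap an annotated gene on the opposite strand, Satb1, Bach2, Lef1, Ptpn22, Ms4a1, S1pr3, Plcg2, Fcgr2b, Tpi1, Gapdh, Pdia6 and Mki67 among them, and their values are less certain.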

How the data were processed

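Poly(A)-selected RNA of splenic B cells, enriched by a kit that depletes other cells, was sequenced in 9 libraries from 9 mice: 3 Eµ-PRMT5/TCL1 mice aged 3 months, 2 aged 6 months, and 2 Eµ-TCL1 mice of either age. Per the methods and the file headers, the authors trimmed reads with Cutadapt, aligned them with STAR 2.6.0c to GRCm38 and deposited raw counts of fragments per gene, made with featureCounts 1.4.6-p5 on Ensembl release 95 with no strand option. Groups come from the sample description.

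Counts were used as deposited, for 54838 genes (54809 with a matched annotation), with total counts per library from 12233230 to 17330246. Genes were filtered with filterByExpr, scaled by TMM and fitted with the robust quasi-likelihood test of edgeR 4.0.16 in R 4.3.3 over all 9 libraries in 4 groups, so that Eµ-TCL1 libraries also set the spread. The Benjamini-Hochberg adjusted p, over all 18795 genes tested, had to be under 0.05. The interaction of genotype and age was tested in the same fit. Alternatives were DESeq2 1.42.0, other scalings and filters, a replicate block, thinned libraries, a T cell score and libraries left out. The scripts were tested on simulated data.

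The comparison and the gene lists were chosen with earlier results of these data known. Named genes are up to 4 members per list and direction with the smallest adjusted p, the most abundant member that did not pass, the 12 largest rises and falls with at least 10 CPM, 5 genes each that were highest in 1 of the 2 mice at 6 months, and the few said to have been added. Lists are described by counts and medians, with no set test. They are to be read against the shares of all genes tested (12.1% higher, 10.4% lower) and of all listed genes (28.2% higher, 10.1% lower). Promoters are RefSeq sequences of GRCm38.p6. Each mouse gave 1 library, so p-values measure the spread between mice. A few genes that the rule would name are not reported here.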

Additional observations from a re-analysis of the deposited data

Results flagged for a closer look

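The change from 3 to 6 months was tested for a difference between the genotypes, and the results below passed that test (edgeR quasi-likelihood, interaction of genotype and age, adjusted p at most 0.05). This was so for 745 of 18795 genes. Values are the log2 fold change at 6 over 3 months in Eµ-PRMT5/TCL1 mice minus that in Eµ-TCL1 mice, so that a positive value is a more positive change in the double transgenic line. All of these depend on 4 Eµ-TCL1 libraries, in which sex and age cannot be told apart, and the count was 2 without Eµ-TCL1 replicate 1 at 3 months.

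Among B cell genes, the difference was positive for Ighm (2.84), Igkc (2.17), Blk (1.89), Ahnak (1.72), Fcrla (1.64), Myb (1.56), Iglc3 (1.46), Ms4a1 (1.44), Pou2af1 (1.34), Cd24a (1.31) and Cxcr5 (1.23). It was negative for Cr2 (-3.17), Fcer2a (-2.85), Ighd (-1.73) and Cd1d1 (-1.35). Among genes of B1a and plasma cells, the difference was positive for Zbtb32 (4.17), Il10 (4.13), Bhlhe41 (3.76), Creb3l2 (2.90), Mzb1 (2.45), Prdm1 (2.13), Fcrl5 (2.02), Ptpn22 (1.46), Irf4 (1.38), Ctla4 (1.24) and Ell2 (1.17). Among transcription factors and chromatin genes, the difference was positive for Nfatc1 (1.73), Myc (1.53), Crem (1.32) and Ahr (1.22). It was negative for Tet1 (-2.15), Satb1 (-1.51), Stat4 (-1.51), Tcf7 (-1.48), Bach2 (-1.38), Bcl11b (-1.36) and Runx3 (-1.28). Among receptors, ligands and signalling genes, the difference was positive for Tnfrsf19 (4.05), Cd80 (3.08), Cd83 (1.76), Irak2 (1.33), Cd86 (1.33), Itgb1 (1.31), Ly86 (1.31), Syk (1.23) and Tnfrsf13b (1.22). It was negative for Lta (-2.62), Ccr6 (-2.35), Icosl (-2.01), Zap70 (-1.35), Dok2 (-1.32), Cxcr6 (-1.28), Il21r (-1.22), Cd40 (-0.93), Tlr1 (-0.89) and Itga4 (-0.81). Tcf7, Stat4, Bcl11b, Runx3 and Zap70 are T cell or NK cell genes as well. The T cell markers had a median difference of -1.39 and the NK cell markers of -1.825. The part of these cells in the negative values given here was not tested. Among genes of growth, metabolism and protein folding, the difference was positive for Srm (1.48), Hsp90ab1 (1.37), Sel1l (1.35), Hspa8 (1.33), Hspd1 (1.30), Prmt7 (1.12), Slc7a1 (1.07), Nop16 (1.07), Odc1 (1.04), Slc1a5 (1.01), Tpi1 (1.003), Pdia6 (0.98), Acly (0.89), Hyou1 (0.89), Polr1b (0.88), Psmd11 (0.84), Hnrnpc (0.71) and Nolc1 (0.66). Psmd11, Tpi1 and Hnrnpc were the only members of the proteasome, glycolysis and splicing regulator lists that passed. Among genes of the cell cycle, DNA repair and the cytoskeleton, the difference was positive for Wee1 (1.99), Capg (1.52), Vim (1.34), Msh6 (0.84) and Rb1 (0.83). It was negative for Rhoh (-0.91). Among the largest rises and falls, the difference was positive for Ahnak2 (5.98), Gnb3 (5.14), Trim40 (4.34), Tubb3 (3.81) and Cyp11a1 (3.45). It was negative for Rapgef4 (-2.46), Gdf11 (-2.44), Emid1 (-2.33), Map3k19 (-2.07) and St8sia1 (-1.85).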

How the results depend on the processing

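Of 4227 genes past the threshold, 2270 higher and 1957 lower at 6 months, the count stayed within 1.5 times under relative log expression scaling (4226), in DESeq2 (4063), without the filter on low counts (3976), with a minimum count of 50 (3745), in the 5 Eµ-PRMT5/TCL1 libraries alone (3426), after thinning to the smallest library (4107) and without the genes of other cell types (4014). With library totals alone 1236 genes were higher and 3214 lower. With a T cell marker score as a covariate the test called 0 genes, 0 higher and 0 lower (812 at an unadjusted p under 0.05). Leaving out 1 of the 9 libraries gave 1956 to 4361 genes, 1057 to 2422 higher and 899 to 1941 lower, and 2044 and 1956 without replicate 1 and replicate 3 of the 3-month group. For the difference between the genotypes, 745 genes (411 and 334), DESeq2 called 1260 (685 more positive, 575 more negative), library totals alone gave 258 more positive ones, the T cell marker score 1 (0 more positive, 1 more negative), and the libraries left out in turn 2 to 2359, 2 to 982 more positive and 0 to 1377 more negative. It has no value for the 5 Eµ-PRMT5/TCL1 libraries alone. The cause of these moves was not tested.

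Replicate numbers are shared between ages, and no label says that they mark pairs or batches. Deviations of same-numbered libraries from their group means had r = -0.229 and -0.159. With 2 libraries at 6 months these deviations mirror each other, so the values cannot decide if same-numbered samples share more than a number. With the replicate block 1123 genes passed (584 higher, 539 lower), and of the interaction 2 (2 more positive, 0 more negative, 2515 at an unadjusted p under 0.05).

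Of 193 named genes past the threshold, 192 passed with relative log expression scaling, 174 with library totals alone, 190 in DESeq2, 114 with the replicate block and 140 to 183 with 1 library left out. With library totals alone the log2 fold change turned to the opposite sign in Bank1 at -0.18, Cd79a at -0.086 and Wdr77 at -0.061, and the median in the lists pan B cell genes at -0.072, MHC class I genes at -0.11, B cell receptor signalling at -0.015, NF-kB genes at -0.0082, PI3K and mTOR genes at -0.10, AP-1 and immediate early genes at -0.0063, actin cytoskeleton genes at -0.022, splicing regulators at -0.082, anti-apoptotic genes at -0.072 and p53 target genes at -0.045. With a minimum count of 50 the log2 fold change turned to the opposite sign in Bank1 at -0.029. With the block the log2 fold change turned to the opposite sign in Bank1 at -0.043. With the T cell marker score the log2 fold change turned to the opposite sign in Bcl10 at -0.046, Cd79a at -1.005, Cdkn2b at -1.32, Gpr183 at 0.49, Impdh1 at 0.74, Klhl13 at -3.55, Mcl1 at -0.085, Nfkbid at -0.15, Notch1 at 0.040, Notch2 at 0.13, Pik3r1 at -0.19, Ptprc at 0.082, Rictor at 0.20, Rps2 at -0.055, Tcf4 at -0.45, Togaram2 at -4.69 and Traf1 at 0.40, and the median in the lists dendritic cell markers at 0.44, pan B cell genes at -0.20, marginal zone B cell genes at 0.13, germinal center genes at 0.36, MHC class I genes at -0.32, B cell receptor signalling at -0.030, inhibitors of B cell receptor signalling at -0.35, NF-kB genes at -0.24, Notch genes at 0.13, cytokine and TNF family receptors at 0.046, homing receptors and integrins at 0.44, ribosomal proteins at -0.21, splicing regulators at -0.056, cell cycle inhibitors at -0.25 and anti-apoptotic genes at -0.14. With libraries left out in turn, the sign turned, from the lowest to the highest value, in Bank1 (-0.20 to 0.23), Bcl2 (-0.57 to 0.22), Btla (-0.81 to 0.18), Cd79a (-0.22 to 0.40), Ighg2b (-3.82 to 2.83), Jchain (-0.48 to 0.039), Notch2 (-0.57 to 0.073) and S100a9 (-1.32 to 1.92), and for the median in the lists dendritic cell markers (-0.75 to 0.30), marginal zone B cell genes (-0.63 to 0.013), human CLL genes (-0.44 to 0.16), immature B cell genes (-0.71 to 0.35), NF-kB genes (-0.10 to 0.21), Wnt genes (-0.54 to 0.023), AP-1 and immediate early genes (-0.33 to 0.42), chromatin regulators (-0.19 to 0.0034), glycolysis genes (-0.039 to 0.55) and fatty acid synthesis genes (-0.084 to 0.29).

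Depth of at least 12233230 counts a library leaves genes under about 1 CPM with few counts, and 2 mice at 6 months limit the error of each value.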
